A study of Homo sapiens with 118 samples.

Results

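The data described here are the libraries of the lowest concentration, C1, of 7 histone deacetylase inhibitors in HepaRG cells, compared between the HepaRG batches B326, B330 and B303. HepaRG is an established human liver cell line. The rule took the C1 library of every chemical other than trichostatin A from each batch, which gave 21 of the 118 libraries of the series, 7 per batch. Cryopreserved differentiated cells were cultured for 7 days and then exposed for 72 hours, with the chemical renewed daily. All groups share that exposure, so none of these libraries is untreated. The doses at C1, with the numbers as labelled, were 0.041722 µM for apicidin, 0.177222 µM for mocetinostat, 0.001468 µM for panobinostat, 4.94 µM for scriptaid, 1.143333 µM for tacedinaline and 0.404778 µM for vorinostat. Valproic acid is labelled 100.478 without a unit, and the treatment protocol gives a different number, so its unit is not settled. Cell lysates were measured by TempO-Seq, which ligates pairs of probes that anneal side by side on a transcript and counts the ligated pairs by sequencing. A row of the count table, called a feature here, is 1 probe pair, named by its gene symbol and a probe number.

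Differentiated HepaRG cultures are known to hold hepatocyte-like and biliary-like cells that arise from a common bipotent progenitor. Hepatocytes make most plasma proteins, produce glucose and urea, and carry the cytochrome P450 enzymes that oxidise drugs. In culture these functions depend on how far the cells have differentiated, so that lots of such cells can differ.

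Each chemical contributed 1 library to every batch, so libraries were compared within chemicals, with the chemical as a block. Plate H held the libraries of apicidin, mocetinostat, panobinostat and valproic acid, and plate E those of scriptaid, tacedinaline and vorinostat. Each plate held all 3 batches. On plate H batch B326 lay in the well rows A and B, batch B330 in C to E and batch B303 in F and G. On plate E batch B326 lay in row A, batch B330 in C and D and batch B303 in F and G. Batch and well row therefore cannot be told apart. Total counts ran from 1243102 to 5250260 in batch B326, from 3442880 to 5220707 in batch B330 and from 3190600 to 4298201 in batch B303. Totals did not separate the batches (exact two-sided sign-flip permutation test over 7 chemicals, p = 0.297, 0.891 and 0.188 for B330 against B326, B303 against B326 and B303 against B330; the smallest p this design allows is 0.015625). The tacedinaline and vorinostat libraries of batch B326 were the only ones under 2000000 counts. The mocetinostat library of batch B303 stood farthest from the others, with a median Spearman correlation of 0.946 to the other 20 against at least 0.954 for the rest. Calls lost without these chemicals are named beside the counts or the features below.

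Near-baseline expression was led by genes of plasma proteins that hepatocytes make. Albumin had the highest count of all features, with a mean of 22470 CPM, the count set against the scaled total of its library. The next were haptoglobin (HP) at 15520 CPM, MTRNR2L12 at 11210, the fibrinogen chains FGA at 9827 and FGG at 6092, transthyretin (TTR) at 5703, MDM2 at 5311, SERPINA1, or alpha-1-antitrypsin, at 4850, FGB at 4727 and transferrin (TF) at 4712. Of these 10 features, 8 encode proteins that the liver secretes. MDM2 encodes the ligase that controls p53, and MTRNR2L12 is nearly identical to mitochondrial ribosomal RNA, so its count is uncertain. The 10 features together held 8.98% of all counts and the top 100 held 21.3%. The 806 most abundant features held as many counts as all others, 10020 of the 22068 features had at least 5 counts in all 21 libraries, and 2650 had no count in any. Probe pairs differ in efficiency, so ranks between features describe the probes as well as the RNA.

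Some markers of other cell types were low or at 0, and others were measured. The labels call the cells liver progenitor cells. The progenitor and epithelial marker EPCAM had no count in any library, the endothelial marker CDH5 and the leukocyte marker PTPRC had none either, and both KRT7 probes had means of at most 1.32 CPM in every batch. A count of 0 allows up to 3 counts, which is between 0.573 and 2.43 CPM depending on the library. Measured biliary and progenitor genes were the keratin KRT19 (KRT19_10816, mean 37.9 CPM), the transcription factor SOX9 (22.5 CPM) and the fetal protein AFP (7.37 CPM). Cell cycle genes were expressed throughout, with means of 838 CPM for TYMS, 272 for CDK1 and 249 for MKI67. In the endothelial list 7 of 11 features, and in the immune list 5 of 10, had at most 3 counts in every library. Within the immune list, CD68 had means of 51.0, 49.6 and 33.5 CPM in batches B326, B330 and B303. The mesenchymal list summed to medians of 268, 224 and 238 CPM per library in the same order. CYP2A6, a drug-metabolising enzyme of adult liver, had a mean of 0.253 CPM.

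**Figure D1:**
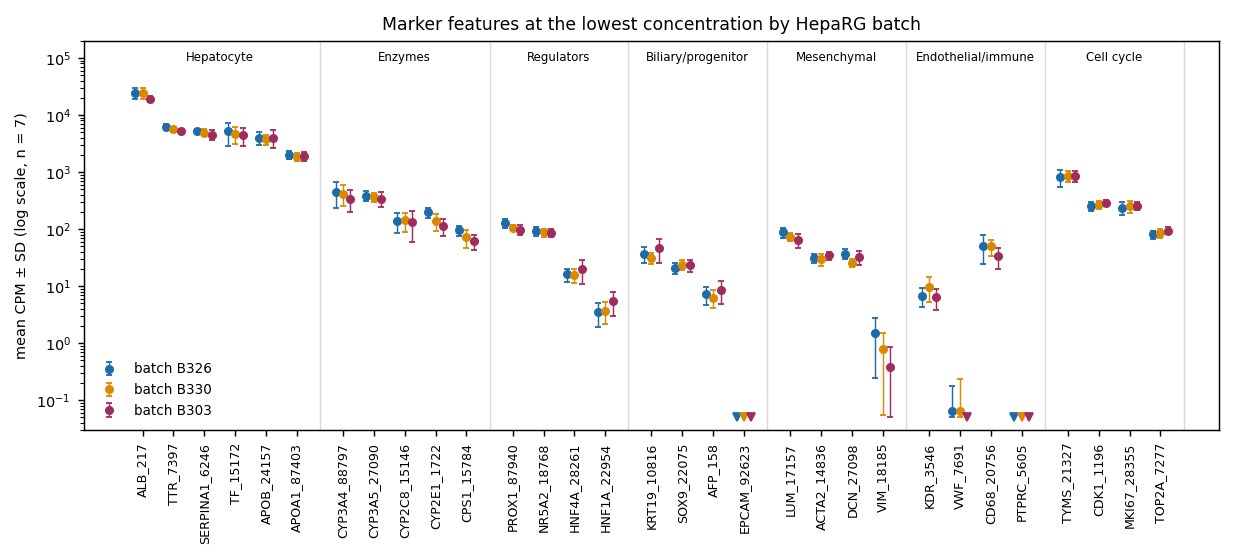
Mean CPM (log axis) of marker features in each HepaRG batch at the lowest concentration, with bars of 1 SD over 7 libraries and arrowheads for means at or under the lower end of the scale. Hepatocyte features span the top of the scale up to albumin, at 24140, 24250 and 19030 CPM in batches B326, B330 and B303, while EPCAM and PTPRC lie at 0 in all of them.

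Batch was a smaller source of variation than chemical. Over 12159 features that passed a filter on low counts, the batch term took a median of 8.28% of a feature's variance in log2 CPM, the chemical term 39.9% and the remainder 47.3%. By degrees of freedom alone these shares would be 10, 30 and 60%. The same chemical in another batch had a median Spearman correlation of 0.970 (21 pairs of libraries, across features), and another chemical on the same plate in the same batch 0.965 (27 pairs). These pairs share libraries and are given as a description. Between chemicals 2036 features (16.7%) differed at an adjusted p under 0.05 in edgeR's quasi-likelihood test, a comparison that includes the plate.

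Batch B303 differed from the other batches in a small set of features. A feature was called between 2 batches where its p, adjusted by Benjamini and Hochberg, was under 0.05 and its fold at least 1.5. Against batch B326, 58 of 12159 features (0.477%) were called, 42 lower (0.345%) and 16 higher (0.132%) in batch B303. Against batch B330, 48 (0.395%) were called, 26 lower (0.214%) and 22 higher (0.181%). Between batches B330 and B326 no feature was called by edgeR (0%), 588 had an unadjusted p under 0.05 and DESeq2 called 5. That unadjusted share was 4.84% of the features tested, beside 13.7% for B303 against B326 and 14.2% for B303 against B330. In a test of all 3 batches together 220 features (1.81%) had an adjusted p under 0.05. Among them batch B303 lay farthest from the other batches as the lowest in 107 and as the highest in 78. The 3 pairwise comparisons share libraries, so their calls are not independent of each other.

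The number of calls depended on single chemicals. Without mocetinostat 37 features were called for B303 against B326 and 14 for B303 against B330. The latter count was 27 without apicidin, 30 without valproic acid and 75 without scriptaid. In the test of all batches the count was 92 without apicidin, 90 without mocetinostat and 102 without valproic acid. Without the chemicals that had a library under 2000000 counts, tacedinaline and vorinostat, the counts were 65 and 89. Of the calls described below, that setting lost those of CYP3A4_90076, EPYC, THRSP, COL4A3, RNASEH2A, CCDC146, CYP51A1, AKR1D1, MFAP5_90460 and TMEM259 against B326. It also lost those of HSD17B13, HLA-B, both MFAP5 probes, SUSD2 and FAM133A against B330. Without the chemical term 10 and 7 features were called, and with the C1 libraries of trichostatin A added, 11 and 9. Plate H alone gave 42 and 93 calls, and plate E alone, with 3 chemicals, gave 11 and 0. Among features that passed the filter on low counts, none was found with a batch difference that differed between the plates (edgeR interaction test, 0 of 12159 at an adjusted p under 0.05, 424 at an unadjusted p under 0.05). With no filter 1 was found. With so few chemicals per plate, this test cannot show that the batch differences were the same on both plates.

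**Figure D2:**
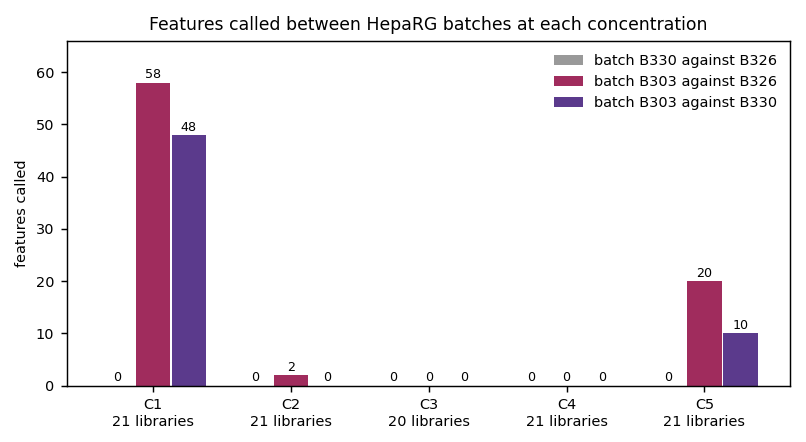
Number of features called between 2 HepaRG batches (bars, linear axis from 0) at each concentration, C1 lowest to C5 highest, with the number of libraries under each. At C1 the counts are 0, 58 and 48 for B330 against B326, B303 against B326 and B303 against B330, and no concentration has a call between batches B330 and B326.

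APOA2, HSD17B13 and plasminogen, all genes expressed in hepatocytes, were called lower in batch B303 than in batch B326. The gene lists below were chosen with earlier results of these data known. APOA2, an apolipoprotein of high-density lipoprotein, ranged from 44.3 to 193 CPM (median 94.4) in batch B326, from 34.0 to 164 (median 53.0) in batch B330 and from 14.0 to 89.3 (median 36.2) in batch B303. The ranges overlapped, and in all 7 chemicals batch B303 was below both other batches. The log2 difference was -1.15 ± 0.11 (SE) against batch B326 (adjusted p = 5.57e-09) and -0.68 ± 0.11 against batch B330 (adjusted p = 0.000744). In bulk lysates, fewer cells of a type and less RNA per cell cannot be told apart.

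HSD17B13 and plasminogen had the same order of batch medians. HSD17B13, an enzyme on hepatocyte lipid droplets, ran from 7.33 to 16.6 CPM (median 10.1) in batch B326, from 4.68 to 15.4 (median 7.86) in batch B330 and from 1.40 to 5.43 (median 4.86) in batch B303. Batches B303 and B326 did not overlap. Its log2 difference was -1.48 ± 0.27 against batch B326 (adjusted p = 0.00153) and -1.14 ± 0.27 against batch B330 (adjusted p = 0.0237), and the second call was lost when apicidin, mocetinostat, tacedinaline or vorinostat was left out. Plasminogen (PLG), the precursor of the clot-dissolving protease plasmin, was named after its values were seen. It ran from 71.2 to 103 CPM (median 87.8) in batch B326, from 34.8 to 79.2 (median 61.8) in batch B330 and from 25.2 to 67.1 (median 37.1) in batch B303. Batch B303 lay below batch B326 without overlap (log2 difference -1.02 ± 0.14, adjusted p = 9.76e-06), and the difference of -0.43 from batch B330 was not called (adjusted p = 0.105). Batch B330 was below batch B326 in all 7 chemicals for PLG, with a log2 difference of -0.59 that was not called either (adjusted p = 0.142).

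The promoters of albumin (ALB), APOA2, HSD17B13, PLG and NQO1 are shown because each gene was lower in batch B303 than in batch B326 at an adjusted p under 0.05, with ALB and NQO1 described below. Each runs from 250 bases before to 50 after the annotated start in RefSeq on GRCh38.p14, 5′ to 3′ on the gene's strand, at chr4:73404037-73404336 (+) for ALB, chr1:161223579-161223878 (-) for APOA2, chr4:87322833-87323132 (-) for HSD17B13, chr6:160701943-160702242 (+, the first of 2 listed starts) for PLG and chr16:69726511-69726810 (-) for NQO1. Capitals mark GTTAAT, or ATTAAC where the match is on the opposite strand, part of the site bound by the liver factor HNF1.
ALB: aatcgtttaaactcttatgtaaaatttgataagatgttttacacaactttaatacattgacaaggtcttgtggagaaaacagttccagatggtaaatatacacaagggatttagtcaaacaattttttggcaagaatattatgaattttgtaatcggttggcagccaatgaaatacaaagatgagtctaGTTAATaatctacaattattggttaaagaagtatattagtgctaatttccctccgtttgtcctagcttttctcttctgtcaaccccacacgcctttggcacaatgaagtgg
APOA2: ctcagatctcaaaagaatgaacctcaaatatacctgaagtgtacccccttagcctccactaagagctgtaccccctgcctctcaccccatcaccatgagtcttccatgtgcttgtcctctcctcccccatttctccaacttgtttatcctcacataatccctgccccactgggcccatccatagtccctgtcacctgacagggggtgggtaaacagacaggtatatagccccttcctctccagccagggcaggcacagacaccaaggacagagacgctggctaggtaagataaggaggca
HSD17B13: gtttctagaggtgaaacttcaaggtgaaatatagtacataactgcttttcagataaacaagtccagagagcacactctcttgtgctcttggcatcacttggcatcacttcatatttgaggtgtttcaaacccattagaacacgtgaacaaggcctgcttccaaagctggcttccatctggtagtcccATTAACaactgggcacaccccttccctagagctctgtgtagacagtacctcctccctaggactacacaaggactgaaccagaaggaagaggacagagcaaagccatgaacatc
PLG: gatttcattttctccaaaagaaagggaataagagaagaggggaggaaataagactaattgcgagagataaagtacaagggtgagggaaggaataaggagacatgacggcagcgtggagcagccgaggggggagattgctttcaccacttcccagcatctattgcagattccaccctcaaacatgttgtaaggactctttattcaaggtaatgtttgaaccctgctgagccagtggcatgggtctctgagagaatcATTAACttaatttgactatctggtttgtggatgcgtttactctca
NQO1: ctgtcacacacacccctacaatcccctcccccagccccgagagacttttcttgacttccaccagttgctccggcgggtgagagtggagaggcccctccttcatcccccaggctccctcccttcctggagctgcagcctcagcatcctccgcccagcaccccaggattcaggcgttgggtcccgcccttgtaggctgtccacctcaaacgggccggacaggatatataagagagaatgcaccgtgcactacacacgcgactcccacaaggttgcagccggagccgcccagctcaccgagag
The match lay at bases -61 to -56 from the start in ALB, at -63 to -58 in HSD17B13 and at +6 to +11 in PLG. The APOA2 and NQO1 windows had no match to it. None of the 5 windows had a match to TGACNNNGC, the core of the antioxidant response element. Bases outside these windows were not searched, so a site farther from the start, in NQO1 or another gene, would be missed. Searched on both strands, GTTAAT was present for 8.27% of 27305 genes in the promoter table and for 6.32% of the 8807 tested genes found there. Of the 42 features lower in B303 against B326, 34 genes had a promoter and 7 of them (20.6%) held the motif, namely AKR1D1, CYP3A43, EPYC, G6PC1, HSD17B13, MMP7 and PLG. For B303 against B330 the share was 2 of 23 (8.70%). Among genes higher in B303 it was 1 of 12 (8.33%) against B326 and 2 of 16 (12.5%) against B330. The antioxidant core was present for 19.5% of tested genes, for 4 of the same 34 (11.8%) and 5 of the same 23 (21.7%) lower genes, and for 0 of 12 and 1 of 16 (6.25%) higher genes. These are counts of letters in a window, with no test.

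G6PC, CPS1 and G0S2 were also called lower in batch B303 than in batch B326. G6PC, the phosphatase that releases free glucose, ranged from 49.0 to 209 CPM (median 93.8) in batch B326 and from 32.2 to 107 (median 48.0) in batch B303. The ranges overlapped, and batch B303 was lower in 6 of 7 chemicals, with a log2 difference of -0.86 ± 0.14 (adjusted p = 0.000495). CPS1, the first enzyme of the urea cycle, had -0.63 ± 0.12 (adjusted p = 0.00216, 7 of 7 chemicals), and its call was lost without panobinostat or without scriptaid. G0S2, an inhibitor of triglyceride breakdown named after its values were seen, was called lower against both batches with the probe G0S2_2539. Its log2 differences were -0.91 ± 0.12 against B326 (adjusted p = 2.78e-06) and -0.71 ± 0.11 against B330 (adjusted p = 0.000533). A second probe with a mean of 20.8 CPM, G0S2_13343, had -0.67 and -0.14. The glycerol phosphate dehydrogenase GPD1 (-0.91), the lipogenic gene THRSP (-0.87), the coagulation factor F12 (-0.75) and the complement regulator CFHR3 (-0.79), also named after their values were seen, were called lower against batch B326. The GPD1 call was lost without apicidin, and the THRSP call without apicidin or without tacedinaline. In the list of urea cycle and glucose production genes, G6PC and CPS1 were the only 2 of 10 tested features with a call, both lower against batch B326, beside 0.345% of all features, and the list's median log2 difference was -0.23 against batch B326, beside 0.0049 over all features.

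Secreted proteins differed by less than 1.5-fold for the most part. Albumin ran from 17460 to 32360 CPM (median 22820) in batch B326, from 18590 to 31800 (median 21850) in batch B330 and from 15290 to 21530 (median 19140) in batch B303. It was lower in batch B303 in all 7 chemicals against either batch, with log2 differences of -0.32 ± 0.06 (adjusted p = 0.00347) and -0.34 ± 0.06 (adjusted p = 0.00381), which passed the adjusted p but not the fold. In the list of hepatocyte secreted proteins 7 of 18 tested features had an adjusted p under 0.05 in the test of all batches, beside the background of 1.81%. These were ALB, APOA2, both probes of APOC3, APOH, RBP4 and TTR, of which APOA2 alone passed the fold. Only 1 of the 18 had a positive log2 difference against batch B326, and the median was -0.21. Against batch B330 the median was -0.15 with 5 of 18 positive. Hemopexin (HPX), a heme carrier named after its values were seen, had a difference of -0.57 ± 0.09 against batch B326 (adjusted p = 0.000395), also under the fold limit. The acute phase list had a median of -0.16 against batch B326 and no called feature in either comparison, although ORM2, LCN2 and SAA2 had an adjusted p under 0.05 in the test of all batches. SAA2 cannot be told apart from its near-identical neighbour SAA1 with certainty.

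Among drug-metabolising enzymes, CYP2E1 and 1 probe of CYP3A4 were called lower in batch B303. CYP2E1, which oxidises ethanol and acetaminophen, ran from 141 to 274 CPM (median 197) in batch B326, from 75.8 to 224 (median 138) in batch B330 and from 72.4 to 177 (median 96.7) in batch B303. Batch B303 was below batch B326 in 7 of 7 chemicals, with a log2 difference of -0.83 ± 0.11 (adjusted p = 2.78e-06). The difference of -0.30 from batch B330 was not called (adjusted p = 0.146). CYP3A4, the main drug-oxidising enzyme of the liver, has 2 probes. CYP3A4_90076 ranged from 22.0 to 103 CPM (median 54.2) in batch B326, from 15.8 to 78.3 (median 52.3) in batch B330 and from 9.20 to 53.0 (median 36.6) in batch B303. It was lower in batch B303 in 7 of 7 chemicals against each batch, with -0.72 ± 0.14 (adjusted p = 0.00216) and -0.63 ± 0.14 (adjusted p = 0.0123), the second call being lost without apicidin or without panobinostat. The other probe, CYP3A4_88797, had -0.41 ± 0.09 against batch B326 (adjusted p = 0.0116), under the fold limit.

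The P450 list as a whole had 16 tested features. Of these 2 were called lower against batch B326 (CYP2E1 and CYP3A4_90076) and 1 against batch B330 (CYP3A4_90076), and none was called higher, beside 0.345% and 0.214% of all features called lower. Features with an adjusted p under 0.05 in the test of all batches included CYP2E1, both probes of CYP3A4 and CYP3A5_28493. The median log2 difference was -0.28 against batch B326, with 1 of 16 positive, and -0.31 against batch B330, with 2 of 16 positive. CYP3A5_28493 ranged from 310 to 406 CPM in batch B330 and from 204 to 249 in batch B303 without overlap, a difference of -0.54 ± 0.09 (adjusted p = 0.000749) that fell just under the fold limit, and the second CYP3A5 probe had -0.13. CYP3A43, a relative of CYP3A4 named after its values were seen, was called lower against both batches (-0.69 ± 0.12 and -0.65 ± 0.12, the second lost without apicidin or without mocetinostat), and its probe may share reads with the other CYP3A genes. The nuclear receptor NR1I3, or CAR, which induces P450 genes, had log2 differences of -0.80 ± 0.16 against B326 (adjusted p = 0.00347) and -0.75 ± 0.16 against B330 (adjusted p = 0.00983) for the probe NR1I3_90298, the second call being lost without apicidin, mocetinostat or valproic acid. The weaker probe NR1I3_87852 had -0.49 and -0.0047 and was not called. NR1I3 was the only called feature among 20 of hepatocyte transcription factors, whose median was -0.02 against batch B326 with 10 of 20 positive. Among conjugating enzymes and transporters 1 of 28 was called lower against batch B326, beside the same 0.345%, the organic anion transporter SLC22A7 (SLC22A7_88372, -0.71 ± 0.13, adjusted p = 0.00137), and the median was -0.23.

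Levels of other cell types' markers in the same libraries are given beside these results. The summed level of the biliary and progenitor list was 72.4 to 109 CPM in batch B326, 72.8 to 101 in batch B330 and 76.3 to 169 in batch B303, and none of its 6 tested features was called. The median log2 difference of this list was 0.19 against batch B326 with 5 of 6 positive and 0.48 against batch B330 with 4 of 6 positive. The mesenchymal list summed to 240 to 324, 186 to 237 and 198 to 289 CPM, and the immune list to 38.2 to 117, 34.8 to 82.4 and 23.5 to 67.7 CPM, mostly CD68. Endothelial features summed to at most 16.7 CPM in any library. The mesenchymal list had a median log2 difference of -0.26 against batch B326 with 2 of 10 positive. Against batch B330 it was 0.12 with 6 of 10 positive. The immune list, with 2 tested features, had medians of -0.45 and -0.21, and the endothelial list, also with 2, had 0.09 and 0.23. Cell cycle genes had a median log2 difference of 0.12 against batch B326 with 14 of 18 positive and no call, and of 0.05 against batch B330. The part of cell composition in the batch differences was not tested.

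**Figure D3:**
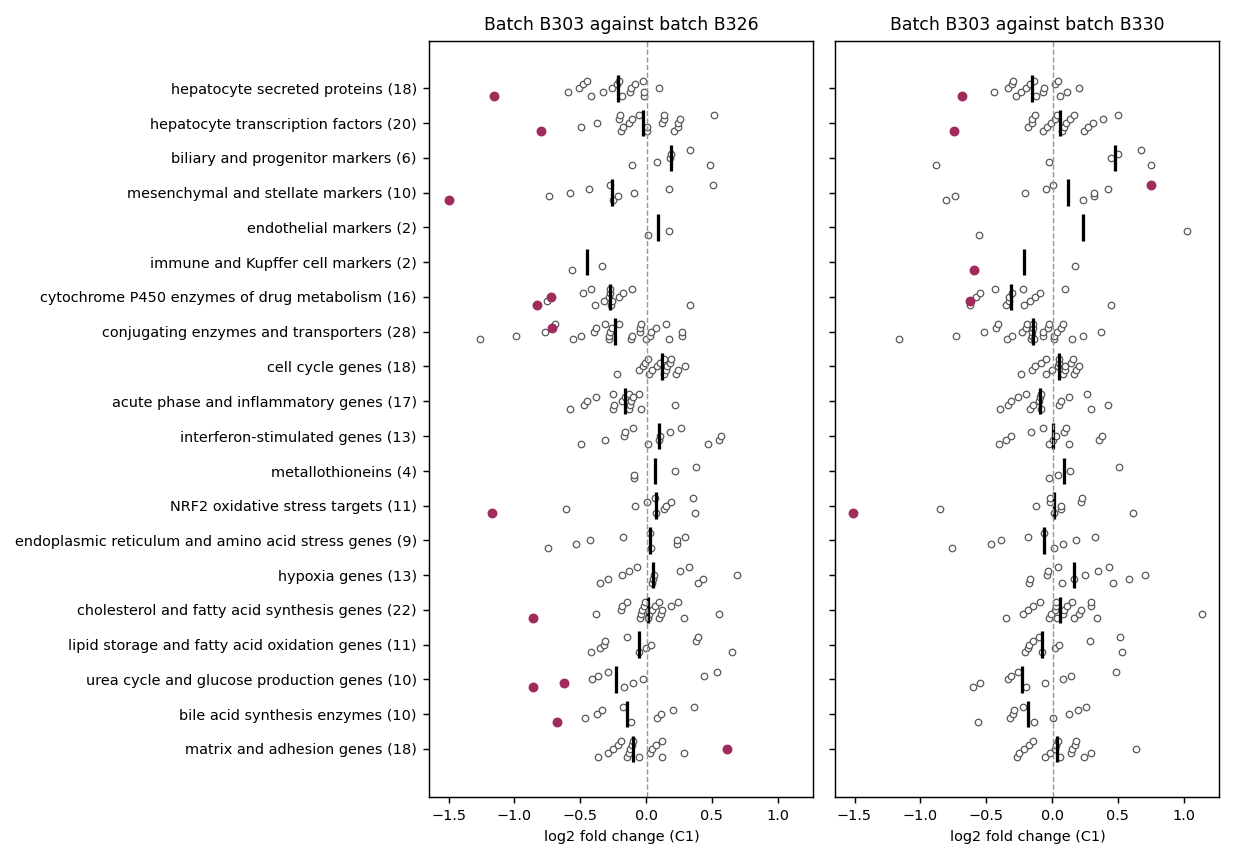
Log2 difference at C1 between batch B303 and batch B326 (left) or batch B330 (right) for each tested feature of 20 gene lists, with the number of tested features in brackets. Filled points were called, open points were not, vertical bars are list medians and the dashed line is the median over all 12159 features; the P450 list lies left of the line in both panels, at medians of -0.28 and -0.31.

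The antioxidant enzymes NQO1 and PRDX6 moved in opposite directions. NQO1, a quinone reductase and a standard target of the oxidative stress factor NRF2, ranged from 22.7 to 47.4 CPM (median 30.5) in batch B326, from 26.4 to 52.5 (median 42.7) in batch B330 and from 8.63 to 19.2 (median 14.7) in batch B303. Every library of batch B303 lay below every library of the other batches. The log2 difference for this probe, NQO1_26473, was -1.17 ± 0.17 against batch B326 (adjusted p = 7.02e-05) and -1.51 ± 0.17 against batch B330 (adjusted p = 5.53e-07). A second probe with a mean of 4.56 CPM, NQO1_4668, had -0.61 and -0.85 and was not called. PRDX6, a peroxiredoxin that reduces lipid peroxides, ran from 350 to 618 CPM (median 514) in batch B326, from 357 to 802 (median 608) in batch B330 and from 576 to 1138 (median 721) in batch B303. It was higher in batch B303 than in batch B326 in 7 of 7 chemicals (log2 difference 0.63 ± 0.10, adjusted p = 0.000348), a call lost without mocetinostat or without scriptaid, and differed by 0.32 from batch B330 without a call. NQO1_26473 was the only called feature of the 11 tested NRF2 targets, beside 0.477% and 0.395% of all features. The list had a median of 0.07 against batch B326 with 8 of 11 positive, and AKR1B10, another of its members, had 0.37 ± 0.08 (adjusted p = 0.0104), under the fold limit.

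Decreases outside metabolism included PAGE2B and small proteoglycans. PAGE2B belongs to a family of cancer and testis antigens. It ranged from 6.39 to 24.0 CPM (median 15.4) in batch B326, from 9.84 to 20.9 (median 15.5) in batch B330 and from 2.81 to 5.78 (median 3.86) in batch B303. Batch B303 did not overlap with either, and the log2 difference was -2.04 ± 0.23 against B326 (adjusted p = 2.71e-07) and -1.96 ± 0.23 against B330 (adjusted p = 7.83e-07). The probe may share reads with near-identical members of the family. Epiphycan (EPYC), a proteoglycan of cartilage, ran from 4.85 to 16.5 CPM (median 9.74) in batch B326 and from 0.259 to 9.11 (median 2.37) in batch B303, with overlap. Its difference was -1.60 ± 0.32 (adjusted p = 0.00404), and the -1.14 against batch B330 was not called.

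Decorin, a proteoglycan of connective tissue, had 3 probes that did not move alike. DCN_27099 ran from 7.98 to 21.8 CPM (median 15.5) in batch B326, from 6.24 to 12.1 (median 8.23) in batch B330 and from 2.48 to 8.19 (median 4.90) in batch B303, and was called lower against batch B326 (-1.50 ± 0.26, adjusted p = 0.000648). DCN_1779 had -0.58 and DCN_27098 had -0.22 in the same comparison, neither called, and both had 0.32 against batch B330. PDGFRB, the platelet-derived growth factor receptor of mesenchymal cells, ran from 14.6 to 25.7 CPM in batch B330 and from 26.8 to 44.7 in batch B303 without overlap, a difference of 0.75 ± 0.17 (adjusted p = 0.0136) whose call was lost without apicidin or without mocetinostat. CD68, a lysosomal protein abundant in macrophages, was lower by 0.59 on the log2 scale in batch B303 than in batch B330, a call lost without apicidin, mocetinostat, scriptaid or valproic acid. MMP7, a matrix protease named after its values were seen, had -0.64 ± 0.12 against batch B326 (adjusted p = 0.00137), a call lost without scriptaid.

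Several of the features higher in batch B303 had low counts. NCAM2, a neural cell adhesion molecule named after its values were seen, ranged from 0.809 to 3.94 CPM (median 2.38) in batch B326, from 1.29 to 5.92 (median 1.44) in batch B330 and from 5.93 to 20.8 (median 8.79) in batch B303. Batch B303 overlapped with neither. The difference was 2.11 ± 0.36 against B326 (adjusted p = 0.000561) and 2.06 ± 0.34 against B330 (adjusted p = 0.000749), although the counts behind it were as low as 1 in batch B326. MFAP5, a microfibril protein also named after its values were seen, was called higher with both probes against both batches, by 2.14 and 1.45 against B326 and by 1.77 and 1.41 against B330. The calls of MFAP5_91292 were kept whichever chemical was left out, while those of MFAP5_90460 were lost without apicidin, mocetinostat, valproic acid, vorinostat and others. CDH20, a cadherin named for the same reason, reached at most 3.23 CPM in batch B326 and 1.40 in batch B330 and ran from 1.40 to 7.75 in batch B303, and both its comparisons were called. The CDH20 call against B326 was lost without apicidin, mocetinostat, scriptaid, valproic acid or vorinostat, on plate H alone and without the chemical term, and that against B330 was kept in all 7 fits that left out a chemical. HLA-B, a class I antigen-presenting molecule, ran from 22.6 to 37.8 CPM (median 26.1) in batch B326, from 23.0 to 48.7 (median 25.1) in batch B330 and from 33.4 to 125 (median 48.1) in batch B303, where mocetinostat held the highest value. It was called higher against both, by 0.95 ± 0.18 (adjusted p = 0.00234) and 0.84 ± 0.18 (adjusted p = 0.0109), the second call being lost without mocetinostat. HLA genes are similar to each other and differ between people, so their probe counts are uncertain.

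By the naming rule, the 5 largest increases against batch B326 that held in all 7 chemicals were those of COL4A3, RNASEH2A, ADGRG2, PRDX6 and UST. COL4A3, a basement membrane collagen chain, had 1.09 ± 0.29 (adjusted p = 0.0483) and kept its call only when vorinostat was the chemical left out. RNASEH2A, the catalytic subunit of ribonuclease H2, had 0.77 and lost its call without apicidin, mocetinostat, panobinostat or tacedinaline. UST, a sulfotransferase of glycosaminoglycans, had 0.60 ± 0.15 and kept its call only without tacedinaline or without vorinostat. ADGRG2, an adhesion receptor, kept its calls more often. It ran from 41.2 to 85.2 CPM (median 63.9) in batch B326, from 41.4 to 90.8 (median 58.4) in batch B330 and from 58.3 to 174 (median 90.7) in batch B303, and was called higher by 0.67 ± 0.12 against B326 (adjusted p = 0.00137, lost without scriptaid) and by 0.71 ± 0.12 against B330 (adjusted p = 0.000749, kept in 7 of 7).

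Against batch B330 the rule named CCDC22, SUSD2, MYBBP1A, FAM83H and FRMD3 as higher in batch B303. CCDC22, a protein of endosomal sorting, lay between 8.68 and 20.9 CPM (median 12.4) in batch B330 and between 23.1 and 30.7 (median 26.4) in batch B303 without overlap. It was called by 1.00 ± 0.18 (adjusted p = 0.00128) in every fit that left out a chemical, but in batch B326 it reached 15.4 to 31.4 CPM, and the difference of B303 from B326 was 0.24 (adjusted p = 0.572). The other 4 had log2 differences from 0.81 to 0.94, and each lost its call without mocetinostat, without panobinostat and without at least 1 other chemical. Among the decreases, CALCR, the calcitonin receptor, lay between 19.6 and 36.9 CPM (median 23.1) in batch B330 and between 6.98 and 13.9 (median 11.0) in batch B303 without overlap (-1.19 ± 0.19, adjusted p = 0.00044). Against batch B326 its difference was -0.84 ± 0.19 (adjusted p = 0.0145), lost without mocetinostat or without valproic acid. CCDC146 had -1.31 against B326 and -1.28 against B330, the first lost without panobinostat, tacedinaline or valproic acid and the second without apicidin, mocetinostat or valproic acid. FAM133A had -0.97 against B330 (adjusted p = 0.0491) and lost its call in all 7 fits.

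**Figure D4:**
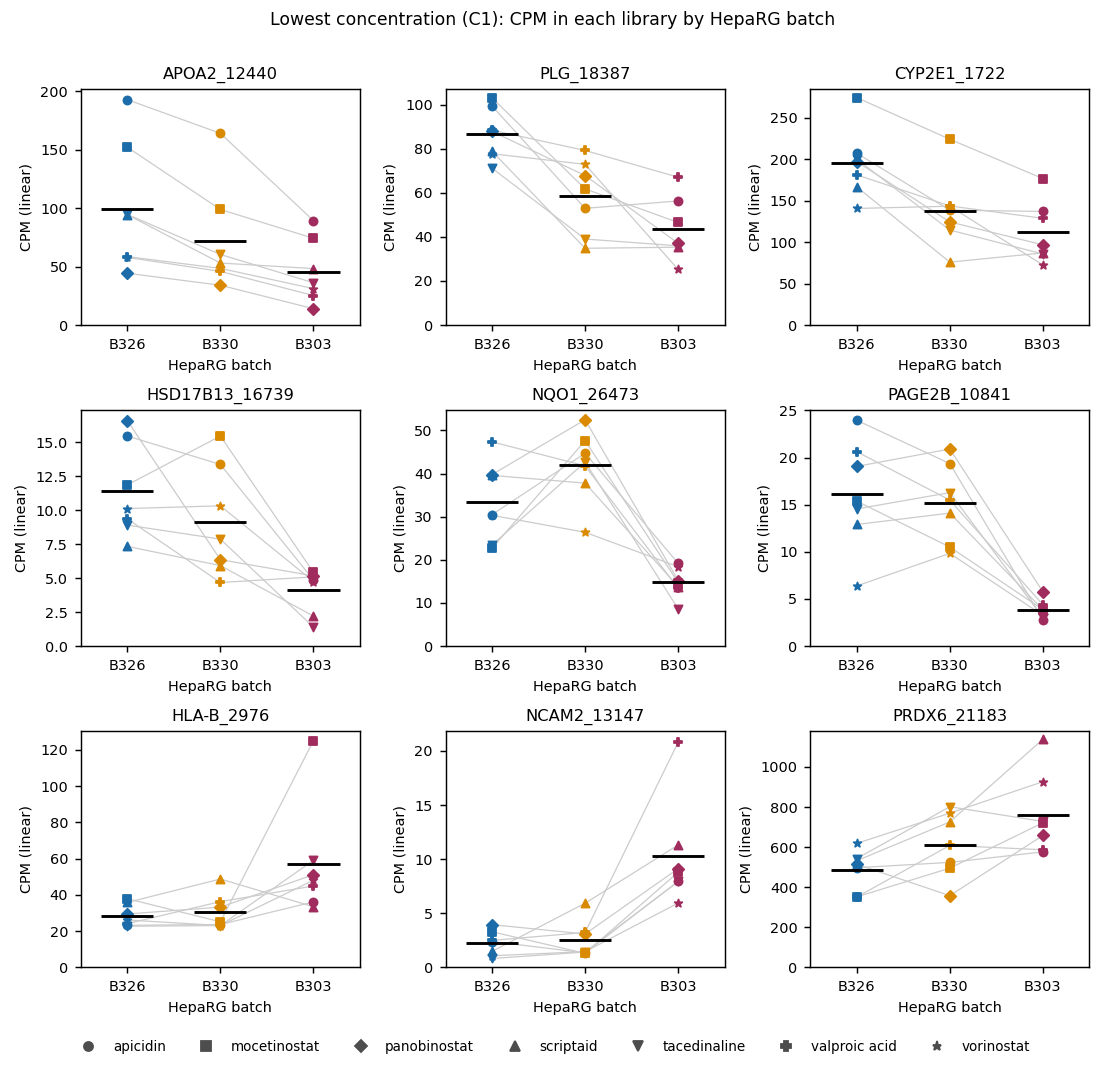
CPM (linear axis from 0) of 9 features in each of the 21 libraries by HepaRG batch, with a marker shape per chemical, grey lines joining the libraries of 1 chemical and a black line at the batch mean. NQO1_26473 and PAGE2B lie lower in batch B303 than in any library of the other batches and NCAM2 higher, while APOA2 overlaps between batches but is lowest in batch B303 within each chemical.

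The remaining lists held 0 or 1 called feature each in edgeR's tests of the pairs. With 0.477% and 0.395% of all features called, lists of this size are near the background, and nothing particular to them is read from these counts. Interferon-stimulated genes had 0 of 13 tested features called, with median log2 differences of 0.10 against B326 and 0.01 against B330, and metallothioneins 0 of 4. Endoplasmic reticulum stress genes had none of 9 called, although the chaperone HSPA5 (0.33 ± 0.08 against B330, adjusted p = 0.0191) and its cochaperone DNAJB9 (-0.46 ± 0.12, adjusted p = 0.0425) passed the adjusted p in opposite directions. Among 13 features of hypoxia genes none was called, and NDRG1 and EGLN3 had 0.43 and 0.46 against batch B330 with adjusted p-values of 0.0174 and 0.00983. In cholesterol and fatty acid synthesis 1 of 22 was called, the weaker probe of the sterol demethylase CYP51A1, lower against batch B326 (-0.86 ± 0.22, adjusted p = 0.0275), a call lost without apicidin, scriptaid, tacedinaline or valproic acid. Bile acid synthesis had 1 of 10, the reductase AKR1D1 (-0.67 ± 0.18, adjusted p = 0.0409), which kept its call only without mocetinostat or without vorinostat. The matrix list had 1 of 18, the laminin chain LAMA5 (0.61 ± 0.14 against B326, adjusted p = 0.0151), lost without apicidin, mocetinostat or scriptaid, and the list of lipid storage and fatty acid oxidation had 0 of 11.

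The same contrasts were computed in libraries that the C1 comparison did not use. At C2 to C5 together, 83 libraries of the same chemicals gave 44 calls for B303 against B326 (0.352%) and 37 for B303 against B330 (0.296%). Of the 58 features called at C1 for B303 against B326, 57 were tested there, 49 had the same sign and 16 were called in the same direction. Of the 48 for B303 against B330, 47 were tested, 40 had the same sign and 8 were called. The log2 differences were smaller there. Their median ratio to those at C1 was 0.489 for the calls against B326 and 0.406 for those against B330. Over all features tested in both, the share with the same sign was 57.5% and 58.4%, beside 86.0% and 85.1% for the features called at C1. Concentration by concentration the calls were fewer, with 2 and 0 at C2, none at C3 or C4 and 20 and 10 at C5. At C3, with 0 calls by edgeR, 519 and 854 features had an unadjusted p under 0.05, and at C4 281 and 612. Among features that passed the filter on low counts, none was found with a batch difference at C5 that differed from that at C1 (edgeR interaction test, 0 of 12288, with 883 at an unadjusted p under 0.05). With no filter 34 were found. A lack of calls in this test does not show that the batch differences were the same at C5 and C1. These libraries come from the same 3 batches. Among these 83 libraries row C of plate H was the only well row with libraries of 2 batches, 3 of batch B326 and 1 of batch B330. No row of theirs held batch B303 with another batch, so for batch B303 batch and well row cannot be told apart there either. Trichostatin A is not among them. On plate H its C1 and C2 libraries of batch B303 lay in row E, which also held libraries of batch B330.

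Individual features differed in how far they recurred. APOA2 had log2 differences for B303 against B326 of -0.99, -1.18, -0.64 and -1.48 at C2, C3, C4 and C5, and -1.06 ± 0.14 over these together (adjusted p = 2.25e-07). PLG had -0.95, -1.35, -0.93 and -0.88. PAGE2B had -1.39, -2.21, -2.05 and -1.72, with -1.80 ± 0.18 over the 4 (adjusted p = 2.78e-10). For these 3 features, as for NQO1_26473 and NCAM2, the sign was the same at every concentration. NQO1_26473 had -1.10, -1.03, -0.56 and -0.83, and NCAM2 had 1.84, 1.46, 1.05 and 0.85. In the 11 libraries of trichostatin A at C2 to C5, which belong to a chemical not used at C1, the same order of features gave -1.44 for APOA2, -0.82 for PLG, -1.52 for PAGE2B, -1.36 for NQO1_26473 and 2.09 for NCAM2. HLA-B had -0.12, 0.17, -0.10 and 0.23 at C2 to C5, and 0.57 ± 0.33 in trichostatin A. Over C2 to C5 together the C1 calls of UST (-0.03), RNASEH2A (0.18) and DCN_27099 (-0.49) against B326 and of CCDC22 (-0.11) against B330 were not called.

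The gene lists recurred unevenly. The P450 list had median log2 differences for B303 against B326 of -0.66, -0.43, -0.33 and -0.36 at C2, C3, C4 and C5, and -0.24 in trichostatin A. The hepatocyte secreted list had -0.27, -0.30, -0.07 and -0.42, but 0.05 with 10 of 18 positive in trichostatin A. The list of conjugating enzymes and transporters had -0.18, -0.05, 0.04 and -0.0008. Cell cycle genes had 0.31, 0.29, 0.24 and 0.23 with 17, 18, 17 and 17 of 18 positive, larger medians than the 0.12 at C1. The medians over all features lay between -0.01 and 0.02 in these fits.

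**Figure D5:**
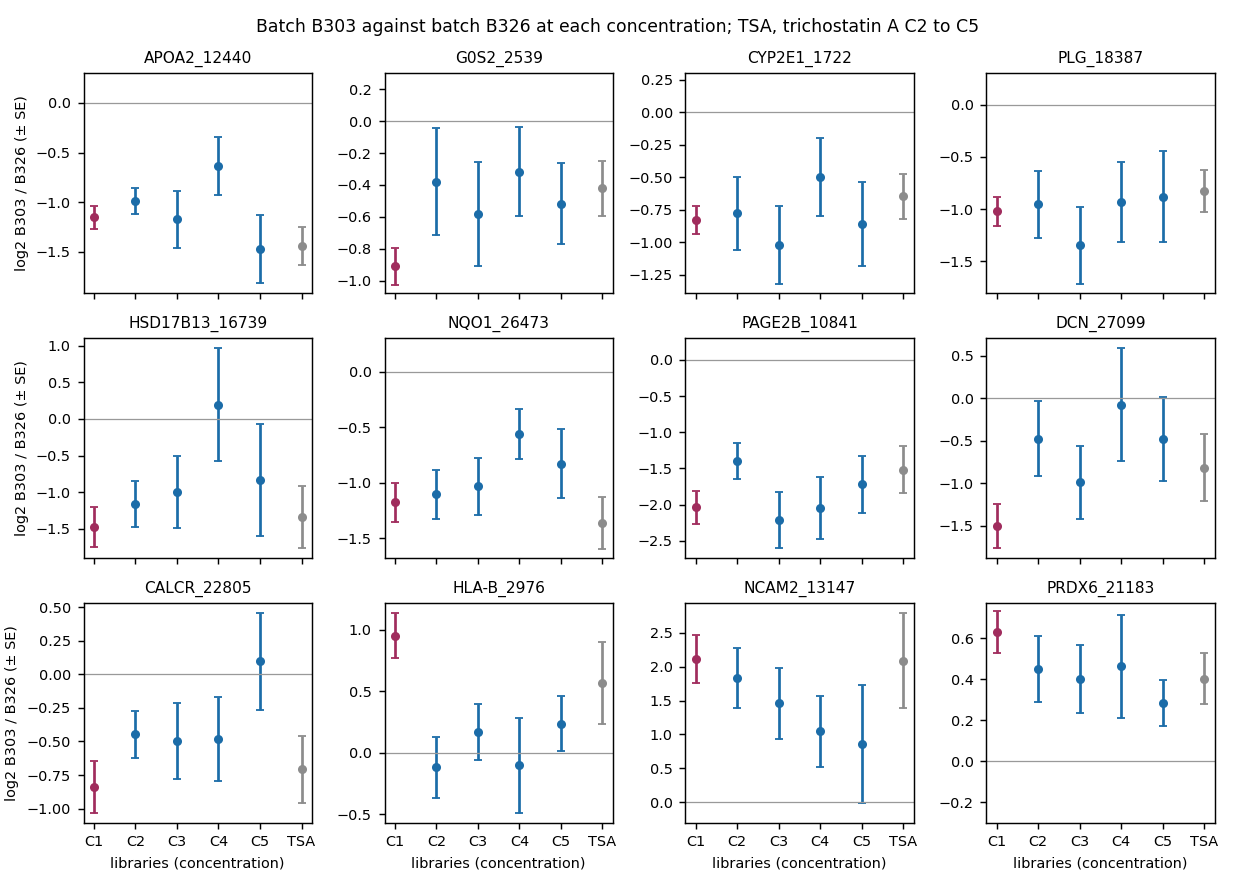
Log2 difference of batch B303 against batch B326, with bars of 1 SE, for 12 features at C1 to C5 of the 7 chemicals and in trichostatin A at C2 to C5 (TSA), with a line at 0. APOA2, PLG, PAGE2B and NQO1 lie below 0 and NCAM2 above 0 in all 6 sets of libraries, whereas HLA-B lies between -0.12 and 0.23 at C2 to C5.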

How the data were processed

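The deposited table holds raw counts per probe pair, which the authors made from TempO-Seq reads (Human Whole Transcriptome panel). The submitters' processing notes name bcl2fastq 2.20.422, fastp 0.23.2, STAR 2.7.10b and DESeq2 1.38.0, and the genome build is not given in the sources used here. Of 22069 rows, 1 lacked values in 88 libraries and was left out. Solvent controls were not analysed here, and some genes are not reported here. The paper at hand covers another experiment and served for style only. Nothing in the labels says that libraries of a batch were separate cultures, so p-values and SE rest on the spread between these libraries. Floors cover counting error only.

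Counts were fitted in R 4.3.3 with edgeR 4.0.16 (filterByExpr by batch, TMM scaling, quasi-likelihood F tests, batch plus chemical), in a script tested on simulated data. Calls needed a p under 0.05 after Benjamini-Hochberg adjustment and at least a 1.5-fold change. CPM were relative to TMM-scaled totals, variance shares used a prior count of 2, and the SE is the log2 difference over the square root of F. Pairing by chemical comes from the labels, since each chemical gives 1 library per batch. Of 10968 tested symbols, 10666 match RefSeq. Members, gene lists and tests were chosen with earlier results of these data known. Named by rule were, per comparison of batches, the 5 largest called rises and falls with a mean of at least 5 CPM and 1 sign in all 7 chemicals, the 10 features of highest mean CPM, and up to 4 members per list with the smallest p in the test of all batches. DESeq2 1.42.0, other scaling, filters, plates, library sets and thinned counts were alternatives.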

Additional observations from a re-analysis of the deposited data

Results flagged for a closer look

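In 93 groups of 7 libraries that were searched for a single library apart from the other 6, 5 values were flagged. Chance alone gives about 1 in 20 groups, so a number of this size is near the chance rate. The groups share libraries and are not independent. All 5 flagged values were from libraries of mocetinostat. In batch B303 its library had the lowest CALCR, at 6.98 CPM, and the highest haptoglobin, at 30250 CPM, and fibrinogen gamma chain (FGG), at 10220 CPM. The 10 most abundant features took 12.6% of the counts in its batch B330 library and 11.6% in its batch B303 library, the highest shares in those batches. In batch B326 the mocetinostat library also had the highest such share, at 13.3%, and the highest haptoglobin, at 30170 CPM.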

How the results depend on the processing

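Counts are given in the order B330 against B326, B303 against B326, B303 against B330 and all 3 batches, from main values of 0, 58, 48 and 220. They were 5, 94, 74 and 347 with DESeq2 (57 of the 58 and 48 of the 48 shared with edgeR), 11, 95, 75 and 391 with no filter on low counts, 0, 42, 93 and 91 on plate H, 1, 11, 0 and 2 on plate E, and 0, 11, 9 and 11 with the trichostatin A C1 libraries added, which took the comparison of chemicals from 2036 to 864. Chosen after seeing the data, all concentrations together gave 5, 67, 48 and 371, leaving out tacedinaline and vorinostat 2, 65, 89 and 169, and thinning every library to the lowest total 1, 52, 34 and 149. Without the chemical as replicate block the counts were 0, 10, 7 and 10. Leaving out 1 chemical at a time gave 0 to 3, 37 to 75, 14 to 75 and 90 to 275, and 1602 to 2011 for chemicals. At C2 the count for B303 against B326 went from 2 to 12 with no filter and to 0 without the replicate block, and for B303 against B330 from 0 to 7 with no filter. With no filter the plate interaction had 1 feature and the concentration interaction 34. The difference in total count between B303 and B326, 76916.57 counts, ranged from -390174.8 without tacedinaline to 376653 without panobinostat, and was -145542.2 without vorinostat. For B330 against B326 it ranged from 317227.7 to 988790, and for B303 against B330 from -761571.8 to -334727.3. No feature named by the rule changed sign. Of the 20 calls named by the rule for batch comparisons, 20 were kept with DESeq2, 7 without the replicate block, 8 on plate H, 1 on plate E, 4 with trichostatin A C1 added, 10 with all concentrations and 10 with thinned counts. Against B326, PLG was called in all 11 of these alternatives and APOA2 and PAGE2B in 10. The plate and left-out fits held fewer libraries, and the cause of these shifts was not tested. Features of low count, such as NCAM2, MFAP5 and CDH20, rest on few reads in the shallow libraries of batch B326.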

Other observations

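Further features among the 20 with the smallest p in the test of all batches were chosen after their values were seen. UGT1A8, a glucuronosyltransferase whose probe can share reads with other UGT1A genes, ran from 775 to 1094 CPM in batch B326, from 740 to 1112 in B330 and from 571 to 822 in B303, with log2 differences of B303 of -0.44 ± 0.08 and -0.36 ± 0.08 that passed the adjusted p (edgeR, 0.000561 and 0.009) but not the fold. TMEM259 ran from 100.4 to 138 CPM in B326 and from 67.0 to 93.3 in B303 without overlap and was called lower (-0.60 ± 0.10), a call lost without panobinostat, tacedinaline or vorinostat. IL13RA2, a receptor for interleukin 13, was at 705 to 1179 CPM in B303 and 996 to 1536 in B330, with a difference of -0.42 ± 0.07 (edgeR, adjusted p = 0.000744) under the fold limit. Among genes with a positive difference, the polyamine enzyme ODC1 (ODC1_11553) had 0.45 and 0.35 and the amine oxidase MAOA 0.49 and 0.39 against B326 and B330, all under the fold limit, and the second ODC1 probe had -0.05 and -0.14. MAOA had 0.14 against B326 over C2 to C5.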
